A study of Mus musculus with 96 samples.

Results

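The genes described are those of the enzymes that join glutathione, glucuronic acid or sulfate to drugs, hormones and waste products. They were taken as every gene whose array probe carries a symbol that starts with Gsta, Gstk, Gstm, Gsto, Gstp, Gstt, Gstz, Mgst, Ugt1, Ugt2, Ugt3 or Sult, and the choice used no measured value. The rule found 56 genes of 17658 named genes on the array, measured by 87 probes. They comprise 24 glutathione transferase genes (3 of them of the microsomal type), 18 UDP-glucuronosyltransferase genes and 14 sulfotransferase genes. One probe stood for each gene, that with the highest mean signal over all arrays.

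Conjugation makes a fat-soluble compound soluble in water, so that it can leave in bile or urine. Glutathione transferases couple the thiol of glutathione to reactive electrophiles, and the microsomal members sit in membranes and also act on lipid peroxides and leukotrienes. UDP-glucuronosyltransferases of the endoplasmic reticulum move glucuronic acid from UDP-glucuronic acid to bilirubin, steroids, bile acids and phenols, and cytosolic sulfotransferases move sulfate from the donor PAPS to phenols, catecholamines, steroids and bile acids. The liver is the main site of these reactions, and in mouse liver many of the genes are known to differ between the sexes under the control of pituitary growth hormone.

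The liver and gonadal fat came from 48 mice of an F2 intercross of the lines M16i and MB2, all aged 15 weeks. Each mouse gave 1 liver array and 1 fat array, 96 Illumina bead arrays in all. Each tissue had 24 arrays of females and 24 of males, and 12 arrays of each of 4 haplotype classes, 6 a sex. The labels do not say which parental segments a class carries, so classes are called by number. No mouse had a treatment in the labels. The labels give no genotype beyond the haplotype class, so differences between the mice elsewhere in the genome could not be taken into account. Both samples were whole tissue. Fewer cells of a type and less RNA per cell therefore cannot be told apart in any comparison below.

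The arrays detected 5519 to 9060 probes in liver and 6582 to 10002 in fat. All values below are log2 signals after background correction and quantile normalization, for which the number of arrays limits the precision. Hepatocyte markers had a summed signal of 52600 to 87400 in liver arrays and of 368 to 1090 in fat arrays. Adipocyte markers had 582 to 1090 in liver arrays and 24900 to 62900 in fat arrays. Of the 8 hepatocyte markers, 5 were detected on some fat array in each sex, and Alb and Tat were detected on none. Xist was higher in every female array than in any male array of its tissue, as the sex labels have it.

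Probes of close paralogs can bind each other's transcripts, and this limits which member a value belongs to. The 7 Ugt1 members lie together on chromosome 1 and share their last exons, the 9 Ugt2 members lie on chromosome 5, and the 7 Gstm members on chromosome 3. All 4 Gstt members lie on chromosome 10 and both Gstp members on chromosome 19. Sult2a2 and Sult2a8 lie on chromosome 7. No probe sequences were used here, so binding to paralogs could not be checked.

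Promoter sequences show how like some of these genes are. RefSeq windows of the GRCm38.p6 build, from 250 bases before to 50 bases after a gene's start, were matched to 50 of the 56 members by gene ID, in 62 windows. Gsta4, Gstt2, Sult2a2, Sult4a1, Ugt1a6b and Ugt3a2 had no entry. The windows of Gstp1, the pi-class gene with the widest sex difference in liver, and of its neighbour Gstp2, which no probe on the array is named for, were aligned because their transcripts are among the hardest to separate. They were identical at 241 of 284 aligned positions (84.9%), with 17 more bases in gaps. Capitals mark bases that differ or lie in a gap within the alignment. Unaligned bases, at the start of the Gstp1 window and the end of the Gstp2 window, are left in lower case.
Gstp1 (chr19:4037863-4038162, minus strand): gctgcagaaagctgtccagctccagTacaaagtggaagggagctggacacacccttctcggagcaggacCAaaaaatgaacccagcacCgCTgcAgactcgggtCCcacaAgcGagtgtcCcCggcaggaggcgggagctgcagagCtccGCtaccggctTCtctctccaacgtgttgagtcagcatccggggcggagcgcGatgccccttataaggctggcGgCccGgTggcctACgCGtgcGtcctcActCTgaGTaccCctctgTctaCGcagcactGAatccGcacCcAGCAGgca
Gstp2 (chr19:4042172-4042471, minus strand): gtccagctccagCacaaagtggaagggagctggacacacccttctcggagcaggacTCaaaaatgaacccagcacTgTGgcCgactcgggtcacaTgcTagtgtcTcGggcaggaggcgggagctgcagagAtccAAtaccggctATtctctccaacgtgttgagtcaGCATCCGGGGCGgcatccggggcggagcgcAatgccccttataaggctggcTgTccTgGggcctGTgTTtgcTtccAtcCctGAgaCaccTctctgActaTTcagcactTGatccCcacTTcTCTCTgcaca

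The motif GTTAATNAT, the core of sites bound by the liver factor HNF1, was searched on both strands because many members were high in liver. It was found in the windows of 3 members, Ugt1a9, Ugt1a10 and Sult1d1. This is 4.84% of the 62 member windows, against 0.801% of all 32851 windows. The motif had been shortened by 1 letter after its first search, so these shares are a description and not a test. The windows of Ugt1a9 and Ugt1a10 are alike around the match, so their matches are not independent. Capitals mark the match, which begins 94 bases before the gene's start in Ugt1a9, 74 bases before it in Ugt1a10 and 79 bases before it in Sult1d1.
Ugt1a9 (chr1:88070529-88070828, plus strand): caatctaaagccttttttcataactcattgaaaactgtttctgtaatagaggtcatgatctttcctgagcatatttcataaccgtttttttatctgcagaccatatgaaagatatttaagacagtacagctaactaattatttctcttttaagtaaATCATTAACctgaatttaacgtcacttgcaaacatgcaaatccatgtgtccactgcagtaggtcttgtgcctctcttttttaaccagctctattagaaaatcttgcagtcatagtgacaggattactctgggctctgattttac
Ugt1a10 (chr1:88055161-88055460, plus strand): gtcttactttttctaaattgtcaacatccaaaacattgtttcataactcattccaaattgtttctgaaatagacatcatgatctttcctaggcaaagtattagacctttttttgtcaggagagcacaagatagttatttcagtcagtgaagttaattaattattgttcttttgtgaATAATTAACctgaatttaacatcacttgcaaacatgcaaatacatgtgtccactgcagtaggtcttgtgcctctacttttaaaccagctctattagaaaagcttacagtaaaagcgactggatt
Sult1d1 (chr5:87568957-87569256, minus strand): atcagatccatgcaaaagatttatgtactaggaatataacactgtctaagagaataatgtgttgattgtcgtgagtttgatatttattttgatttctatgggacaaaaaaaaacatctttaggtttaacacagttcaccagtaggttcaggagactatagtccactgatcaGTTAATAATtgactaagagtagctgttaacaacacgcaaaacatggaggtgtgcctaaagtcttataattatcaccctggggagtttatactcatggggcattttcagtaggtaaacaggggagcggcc

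The motif TGACNNNGC, the core of the antioxidant response element, was in the windows of Gsta3, Gstm5, Gstm7 and Mgst1, 6.45% of member windows against 12.4% of all windows. TTCNNNGAA, the core of STAT sites, was in those of Gsta1, Gstm6, Mgst1, Mgst2, Sult3a1 and Ugt1a6a, 9.68% of member windows against 8.3% of all. Both strands were searched for each, and matches of different motifs overlapped at 0 places in the member windows. A match of letters is a description and not a bound site.

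Of the 56 members, 42 passed the detection minimum (detection p under 0.01 on at least 12 arrays) over both tissues, 40 passed it within liver and 23 within fat. The 14 that were tested nowhere are Gsto2, Gstt4, Sult1b1, Sult1c1, Sult1e1, Sult2b1, Sult3a2, Sult4a1, Sult6b1, Ugt2a3, Ugt2b37, Ugt2b38, Ugt2b5 and Ugt3a1. Sult1e1, the estrogen sulfotransferase, was detected on 5 arrays, all of male fat. Members that passed through the tissue or sex in which they were high had to differ there, so the counts below describe the tested members and not all 56.

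Liver had higher signals than gonadal fat for most of the conjugating enzymes that could be tested. In limma's test with Benjamini-Hochberg adjustment over 11718 probes, 40 of 42 members passed an adjusted p of 0.05, 36 higher and 4 lower in liver. Over all probes 86.7% passed, 38.8% higher and 47.9% lower in liver. The members' median difference was 1.30 on the log2 scale and that of all probes was -0.04. All 13 tested UDP-glucuronosyltransferases and all 7 tested sulfotransferases were higher in liver, as were 16 of 22 glutathione transferases. Only 5 of these glucuronosyltransferases and 1 of these sulfotransferases passed the detection minimum within fat. Most of the others entered the test through liver, so their direction was largely set by that filter. In 16 members every liver array lay above every fat array, which held for 7.95% of all probes.

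**Figure D1:**
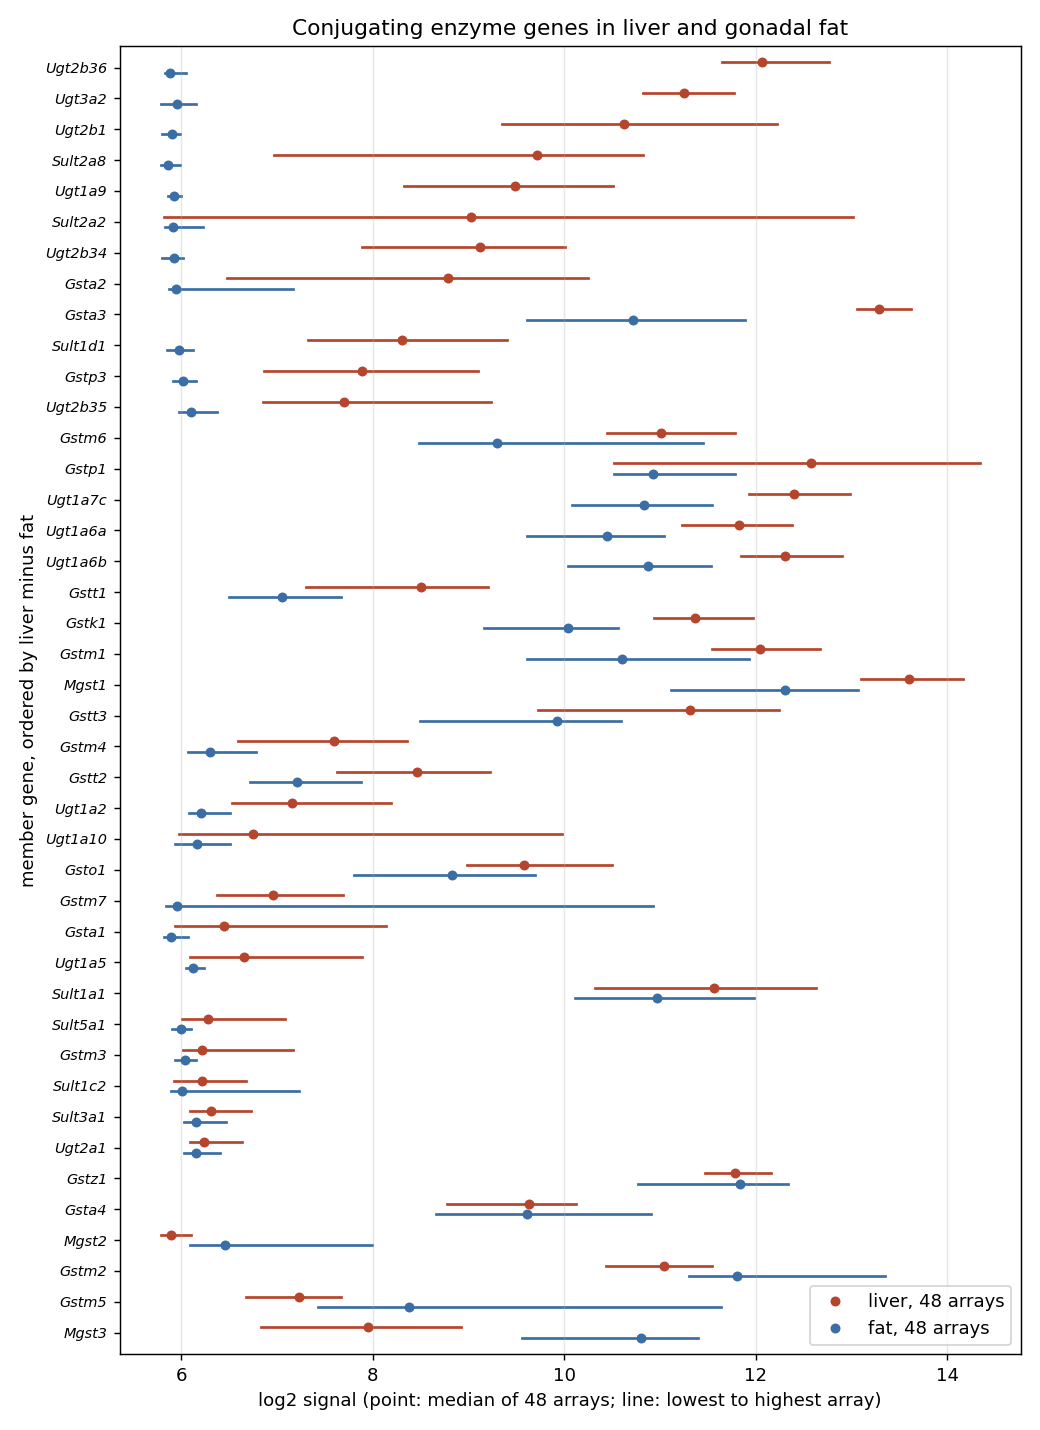
Log2 signal of the 42 tested members in liver (upper line of each pair) and gonadal fat (lower line), with the median of 48 arrays as a point and a line from the lowest to the highest array. Ugt2b36 at the top had medians of 12.06 in liver and 5.88 in fat, and Mgst3 at the bottom 7.95 in liver and 10.80 in fat.

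The largest differences were those of Ugt2 and Ugt3 genes. Ugt2b36, a glucuronosyltransferase of the UGT2 family, had log2 signals of 11.65 to 12.76 in liver (median 12.06), against 5.83 to 6.05 in fat (median 5.88). It was detected on 48 of 48 liver arrays and on 0 of 48 fat arrays, and liver was at least 57.9-fold higher (adjusted p = 1.04e-119). Such a bound sets the liver mean against the lowest signal that counts as detected in fat.

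Ugt3a2, whose human counterpart transfers other sugars than glucuronic acid, lay between 10.83 and 11.77 in liver (median 11.25), against 5.79 to 6.15 in fat (median 5.96). Ugt2b1, which acts on steroids among others, lay between 9.35 and 12.22 in liver (median 10.63), against 5.80 to 5.99 in fat (median 5.90). Ugt2b34, of the same gene cluster, lay between 7.89 and 10.01 in liver (median 9.12), against 5.80 to 6.01 in fat (median 5.93). None of these was detected in fat, and the ranges of the tissues did not overlap. Liver was at least 33.2-fold higher for Ugt3a2 (adjusted p = 7.19e-120), at least 22.3-fold for Ugt2b1 (adjusted p = 8.8e-76) and at least 7.42-fold for Ugt2b34 (adjusted p = 1.23e-71).

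Ugt2b35 had log2 signals of 6.85 to 9.23 in liver (median 7.70), against 5.97 to 6.37 in fat (median 6.11), where 4 arrays detected it. Its difference was 1.67 ± 0.075 (SE; adjusted p = 2.45e-38). Ugt2a1, known from the olfactory epithelium, was near background in both tissues, with 10 arrays of each detecting it, and differed by 0.08 (adjusted p = 0.000151).

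Among the Ugt1 genes, Ugt1a9, a phenol glucuronosyltransferase, was measured in liver alone. Its log2 signals were 8.33 to 10.51 in liver (median 9.49), against 5.86 to 5.99 in fat (median 5.92), where it was not detected, and liver was at least 9.44-fold higher (adjusted p = 3.35e-69). Ugt1a6a, which acts on flat phenols, lay between 11.23 and 12.37 in liver (median 11.82), against 9.61 to 11.04 in fat (median 10.45). Its difference of 1.46 ± 0.052 (SE; adjusted p = 1.27e-46) was close to those of Ugt1a6b (1.42) and Ugt1a7c (1.55), whose probes may report shared exons. Ugt1a2 and Ugt1a5 were 0.97 and 0.65 higher in liver, and were detected on 20 and 5 of the fat arrays.

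Ugt1a10 spread widely in liver. It lay between 5.98 and 9.97 in liver (median 6.75; detected on 34 arrays), against 5.94 to 6.51 in fat (median 6.17; detected on 23 arrays), a difference of 0.96 ± 0.17 (SE; adjusted p = 2.82e-07). The high values came from 1 of the 4 days on which liver arrays were scanned. Normalized within liver, its median was 9.18 on scanning day 1, 6.17 on day 2, 6.59 on day 5 and 6.57 on day 6, with 12 arrays each. Without day 1 the difference between the tissues was 0.38 (adjusted p = 2.73e-05). A further Ugt1a10 probe moved less with day, with medians of 7.47, 7.00, 6.68 and 6.88 on days 1, 2, 5 and 6. The part of the scanning day in this result was not tested further.

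All 7 tested sulfotransferases passed, and in Sult2a8 and Sult1d1 the tissues did not overlap. Sult2a8, a bile acid sulfotransferase, had log2 signals of 6.97 to 10.82 in liver (median 9.71), against 5.79 to 5.99 in fat (median 5.86), and liver was at least 10.9-fold higher (adjusted p = 1.46e-61). Sult2a2, a hydroxysteroid sulfotransferase, spread from 5.82 to 13.02 in liver (median 9.02), against 5.83 to 6.22 in fat (median 5.92), a difference of 3.31 ± 0.34 (SE; adjusted p = 1.48e-15). That spread was a spread between the sexes, described below, and 24 liver arrays and 1 fat array detected it.

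Sult1d1, which sulfates catecholamines, lay between 7.32 and 9.40 in liver (median 8.30), against 5.85 to 6.12 in fat (median 5.98), and liver was at least 4.34-fold higher (adjusted p = 4.85e-54). Sult1a1, the phenol sulfotransferase, was well detected in both tissues, with 10.32 to 12.62 in liver (median 11.56), against 10.11 to 11.98 in fat (median 10.97). The ranges overlapped, and the difference was 0.42 ± 0.060 (SE; adjusted p = 6.4e-10). Sult1c2 and Sult3a1 were detected on 15 and 23 liver arrays and on 6 and 11 fat arrays, and differed by 0.18 and 0.14. Sult5a1, detected on 24 liver arrays and no fat array, was at least 1.09-fold higher in liver.

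Glutathione transferases were detected in both tissues more often than the other classes: 17 of the 24 passed the minimum in fat, against 5 of 18 glucuronosyltransferases and 1 of 14 sulfotransferases. Gsta3, an alpha-class transferase known in mice for detoxifying aflatoxin, lay between 13.06 and 13.62 in liver (median 13.29), against 9.61 to 11.89 in fat (median 10.72). The ranges did not overlap, and the difference was 2.61 ± 0.078 (SE; adjusted p = 8.68e-53). Gsta2, another alpha-class gene, lay between 6.48 and 10.24 in liver (median 8.78), against 5.87 to 7.17 in fat (median 5.95), a difference of 2.62 ± 0.12 (SE; adjusted p = 8.66e-37). A single fat array detected Gsta2. Gstp3, a pi-class gene, lay between 6.86 and 9.09 in liver (median 7.89), against 5.91 to 6.15 in fat (median 6.02), and liver was at least 3.1-fold higher (adjusted p = 3.76e-51).

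The theta-class genes Gstt1, Gstt2 and Gstt3 were 1.21 to 1.41 higher in liver, and Gstk1, the mitochondrial and peroxisomal kappa-class enzyme, was 1.38 higher. Mgst1, a microsomal transferase, was 1.33 ± 0.059 (SE) higher in liver, with no overlap between 13.10 to 14.17 in liver and 11.11 to 13.07 in fat. Of the mu class, Gstm1, Gstm4, Gstm6 and Gstm7 were higher in liver by 0.85 to 1.64. Gstm3 and Gsta1 were not detected in fat and were at least 1.04-fold and 1.27-fold higher in liver. Gsto1, an omega-class enzyme that acts as a thiol transferase, was 0.88 higher. Gstp1, described below for its sex difference, was 1.59 ± 0.13 (SE; adjusted p = 7.09e-20) higher in liver, with overlapping ranges.

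Mgst3, Gstm5, Gstm2 and Mgst2 were the members lower in liver. Mgst3, a microsomal transferase with peroxidase activity, had log2 signals of 6.83 to 8.92 in liver (median 7.95), against 9.55 to 11.40 in fat (median 10.80). Every liver array was below every fat array, as for 9.68% of all probes, and the difference was -2.85 ± 0.10 (SE; adjusted p = 2.83e-46). Gstm5, a mu-class gene, lay between 6.68 and 7.67 in liver (median 7.23), against 7.43 to 11.64 in fat (median 8.37), a difference of -1.46 ± 0.15 (SE; adjusted p = 1.43e-15). Gstm2, another mu-class gene, lay between 10.44 and 11.55 in liver (median 11.04), against 11.30 to 13.35 in fat (median 11.80), a difference of -0.80 ± 0.064 (SE; adjusted p = 3.14e-21).

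Mgst2, which can make leukotriene C4, was not detected on any liver array and was detected on 41 of 48 fat arrays. Its log2 signals were 5.79 to 6.10 in liver (median 5.90), against 6.09 to 7.99 in fat (median 6.46), and liver was at least 1.15-fold lower (adjusted p = 2.97e-22). Of these 4 genes, Gstm5 and Gstm2 were at their highest in male fat arrays that carried transcripts of another organ, as set out below. Without those arrays the count between the tissues was again 40 of 42.

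Gstz1, an isomerase of tyrosine breakdown, and Gsta4, which detoxifies 4-hydroxynonenal, did not pass the test. Gstz1 lay between 11.47 and 12.16 in liver (median 11.79), against 10.77 to 12.33 in fat (median 11.83), and the 95% interval of its difference was -0.09 to 0.13. Gsta4 lay between 8.77 and 10.12 in liver (median 9.63), against 8.66 to 10.91 in fat (median 9.61), with an interval of -0.16 to 0.13.

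The sexes differed in liver for most tested conjugating enzymes, in both directions. Of 40 members tested within liver, 29 passed the adjusted p of 0.05 in limma, 18 higher and 11 lower in females, against 34.0% of 8504 probes (16.7% higher and 17.4% lower). By class, 8 glutathione transferases were higher and 7 lower of 21, 5 glucuronosyltransferases were higher and 3 lower of 12, and 5 sulfotransferases were higher and 1 lower of 7. All 5 glucuronosyltransferases that were higher in females were Ugt1 genes, and all 3 that were lower were Ugt2 genes. In 2 members every female array lay above every male array (0.447% of all probes), and in 1 every female array lay below (0.482%).

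Within liver, Sult2a2 was detected in females alone. Its log2 signals were 12.17 to 13.22 in females (median 12.71), against 5.92 to 6.13 in males (median 6.03), with 24 of 24 female and 0 of 24 male arrays detecting it. Females were at least 83.9-fold higher (adjusted p = 1.02e-53), in 4 of 4 scanning days. Sult2a2 and Sult2a8 had 1 probe each, and binding of these probes to other Sult2a transcripts could not be checked.

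The phenol and catecholamine sulfotransferases were also higher in females. Sult1a1 lay between 11.73 and 12.82 in females (median 12.18), against 10.39 to 11.74 in males (median 10.96), a difference of 1.18 ± 0.085 (SE; adjusted p = 9.44e-16). Its other tested probe gave 1.31. Sult1d1 lay between 7.98 and 9.37 in females (median 8.70), against 7.05 to 8.10 in males (median 7.54), a difference of 1.13 ± 0.098 (SE; adjusted p = 4.43e-13). The ranges overlapped for both genes. Sult1c2, detected on 15 female arrays and no male array, and Sult3a1, on 19 and 4, also passed as higher in females.

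Sult2a8 went the other way from Sult2a2, although both belong to the Sult2a branch. It lay between 6.76 and 9.99 in females (median 9.32), against 9.35 to 10.95 in males (median 10.12), a difference of -1.17 ± 0.16 (SE; adjusted p = 5.21e-08). The ranges overlapped, and the lowest female array, at 6.76, lay apart from the next, at 8.13.

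**Figure D2:**
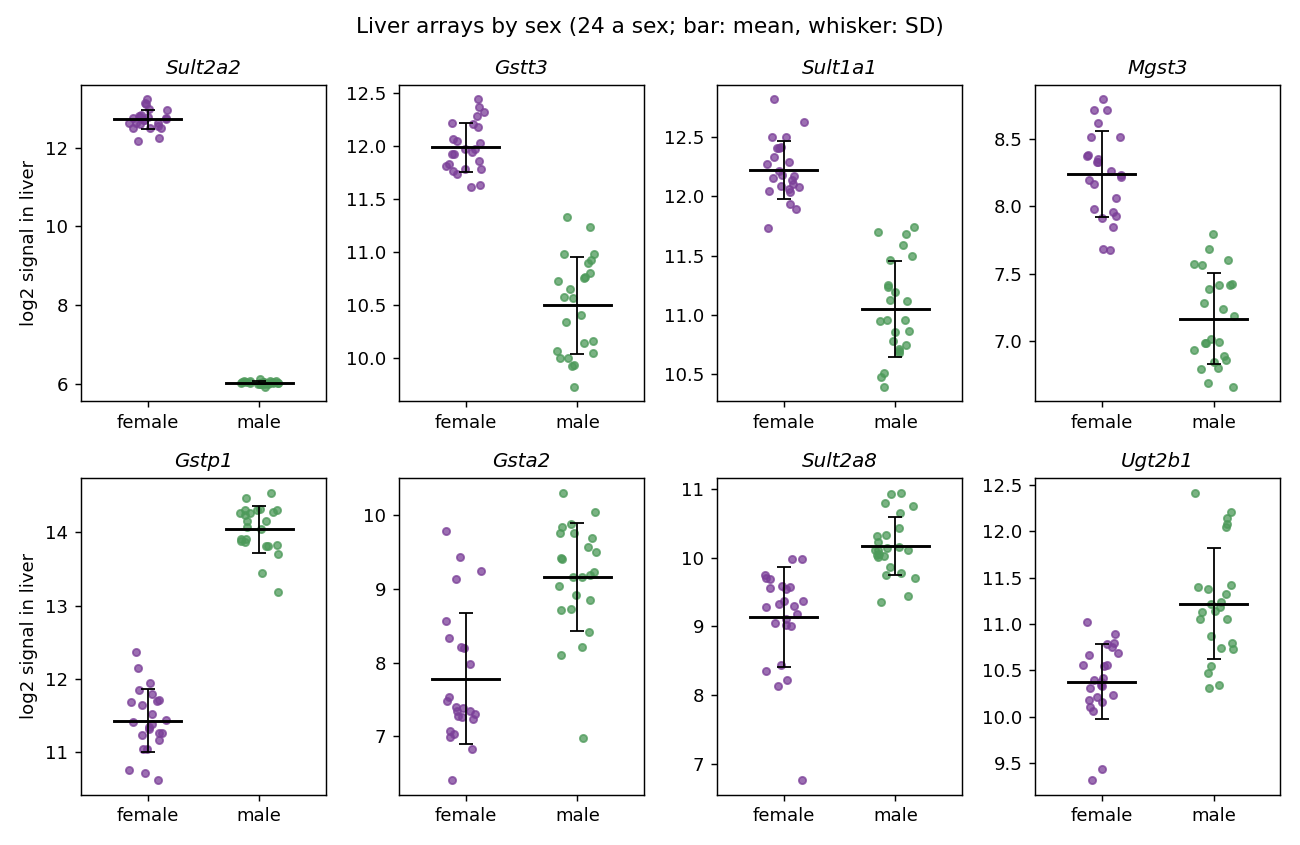
Log2 signal in liver of 8 members on 24 female arrays (left of each panel) and 24 male arrays (right), with the mean as a bar and the SD as a whisker. Sult2a2, Gstt3, Sult1a1 and Mgst3 were higher in females, with means of 12.71 in females and 6.03 in males for Sult2a2, and Gstp1, Gsta2, Sult2a8 and Ugt2b1 were lower, with means of 11.43 in females and 14.04 in males for Gstp1.

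All 3 tested theta-class transferases were higher in female liver. Gstt3 lay between 11.62 and 12.44 in females (median 11.95), against 9.73 to 11.33 in males (median 10.57). The ranges did not overlap, and the difference was 1.56 ± 0.091 (SE; adjusted p = 6.1e-19). Gstt1 lay between 8.27 and 9.15 in females (median 8.85), against 7.04 to 8.39 in males (median 7.79), a difference of 1.06 ± 0.087 (SE; adjusted p = 7.86e-14). Gstt2 overlapped almost wholly, with 7.62 to 8.95 in females (median 8.37), against 7.34 to 9.16 in males (median 8.07), a difference of 0.36 ± 0.098 (SE; adjusted p = 0.00349). The Gstt2 call was lost without scanning day 5 (0.23, adjusted p = 0.232), and its other probe, at 0.26, did not pass (adjusted p = 0.0642).

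Mgst3 was higher and Mgst1 lower in females. Mgst3 lay between 7.68 and 8.80 in females (median 8.25), against 6.65 to 7.80 in males (median 7.10), a difference of 1.12 ± 0.089 (SE; adjusted p = 2.95e-14). Its other tested probe gave 0.78. Mgst1 lay between 13.31 and 14.07 in females (median 13.80), against 13.59 to 14.39 in males (median 13.98), a difference of -0.28 ± 0.063 (SE; adjusted p = 0.000617). Gsto1 lay between 9.47 and 10.60 in females (median 9.86), against 8.88 to 10.02 in males (median 9.34), a difference of 0.43 ± 0.071 (SE; adjusted p = 5.26e-06). Gstk1 was 0.27 ± 0.056 (SE; adjusted p = 0.000145) higher in females, and Gstz1 did not pass (adjusted p = 0.125).

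The pi-class genes were lower in female liver. Gstp1 lay between 10.61 and 12.37 in females (median 11.40), against 13.18 to 14.54 in males (median 14.11). Every female array lay below every male array, the difference was -2.58 ± 0.10 (SE; adjusted p = 8.93e-26), and its other probes gave -3.06 and -3.13. Gstp3 lay between 6.68 and 8.46 in females (median 7.31), against 7.35 to 9.01 in males (median 7.81), a difference of -0.60 ± 0.11 (SE; adjusted p = 1.54e-05). Transcripts of Gstp2 could contribute to either.

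Alpha-class genes diverged within liver. Gsta2 lay between 6.40 and 9.79 in females (median 7.39), against 6.98 to 10.31 in males (median 9.21), a difference of -1.42 ± 0.23 (SE; adjusted p = 2.37e-06), with -0.89 and -1.19 from its other probes. Gsta1 lay between 6.03 and 7.44 in females (median 6.24), against 6.10 to 7.89 in males (median 6.53), a difference of -0.30 ± 0.098 (SE; adjusted p = 0.0172). The Gsta1 call was lost without scanning day 1, 2 or 5, with adjusted p of 0.208, 0.115 and 0.0793. Gsta3 was 0.16 ± 0.041 (SE) higher in females (adjusted p = 0.00213), and the interval for Gsta4 was -0.18 to 0.17.

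Of 7 mu-class genes 1 was higher and 2 were lower in females. Gstm6 lay between 10.53 and 11.42 in females (median 11.07), against 10.65 to 11.97 in males (median 11.27), a difference of -0.28 ± 0.096 (SE; adjusted p = 0.021). This was -0.06 without scanning day 1 (adjusted p = 0.731), and the call was also lost without day 5 (adjusted p = 0.0771). Its other probes gave -0.61 each. Gstm1 was -0.23 ± 0.062 (SE; adjusted p = 0.00341) and Gstm5 0.21 ± 0.061 (SE; adjusted p = 0.00523). Gstm2, Gstm3, Gstm4 and Gstm7 did not pass.

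The Ugt2 genes that passed were lower in females. Ugt2b1 lay between 9.32 and 11.02 in females (median 10.39), against 10.31 to 12.41 in males (median 11.16), a difference of -0.95 ± 0.097 (SE; adjusted p = 6.08e-11). Ugt2b35 lay between 6.67 and 7.79 in females (median 7.09), against 7.00 to 9.18 in males (median 7.94), a difference of -0.83 ± 0.12 (SE; adjusted p = 5.71e-07). Ugt2b36 lay between 11.82 and 12.40 in females (median 12.10), against 11.97 to 12.95 in males (median 12.41), a difference of -0.33 ± 0.053 (SE; adjusted p = 2.6e-06). All 3 kept this direction on 4 of 4 scanning days, with overlapping ranges.

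The Ugt1 genes that passed were higher in females, by 0.31 to 0.54. Ugt1a2 lay between 6.84 and 7.95 in females (median 7.17), against 6.44 to 7.29 in males (median 6.64), a difference of 0.54 ± 0.079 (SE; adjusted p = 4.63e-07), and its other tested probe gave 0.59. Ugt1a6a lay between 11.85 and 12.57 in females (median 12.28), against 11.39 to 12.27 in males (median 11.81), a difference of 0.36 ± 0.043 (SE; adjusted p = 6.65e-09). Ugt1a5, Ugt1a7c and Ugt1a6b were higher by 0.35, 0.34 and 0.31. Ugt1a9, with an interval of -0.20 to 0.34, and Ugt1a10, with 0.01 to 0.68 and an adjusted p of 0.0997, did not pass, nor did Ugt2b34 and Ugt3a2.

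Probes named for Ugt1a6a and Ugt1a6b contradicted each other. Of 4 tested Ugt1a6a probes, 2 were higher in females (0.36 and 0.48) and 2 were lower, at -0.57 (adjusted p = 0.00359) and -0.19 (adjusted p = 0.0488). Of 2 tested Ugt1a6b probes, the brighter was 0.31 higher and the other was -0.54 (adjusted p = 0.00819). The sign given for these genes is that of the probe that stands for each, and which transcript a probe reports could not be checked without its sequence.

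**Figure D3:**
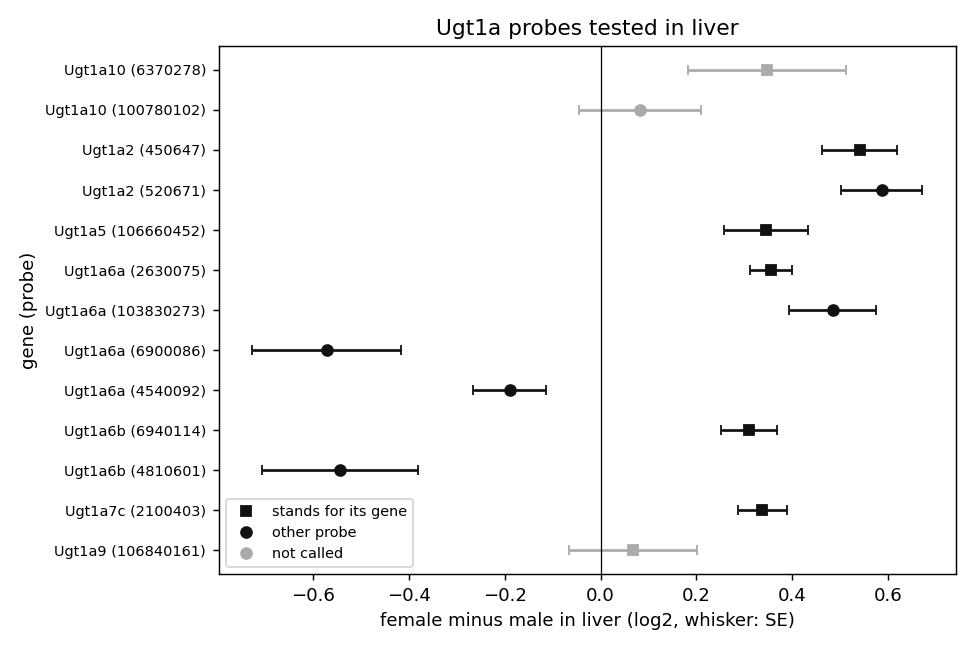
Female minus male in liver (log2, with the SE as a whisker) for each Ugt1a probe tested there, with squares for the probe that stands for its gene and grey for probes that did not pass. The Ugt1a6a probes lie on both sides of 0, from -0.57 to 0.48, and so do the Ugt1a6b probes, from -0.54 to 0.31.

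Markers of other liver cells also differed between the sexes. Of the macrophage markers, Clec4f, of Kupffer cells, was 0.64 higher (adjusted p = 0.00046) and Adgre1 0.38 higher in females (adjusted p = 0.0136), and the summed signal of the 4 measured markers was 525 to 1620 in females and 406 to 1070 in males. The hepatocyte markers had a summed signal of 55500 to 87400 in females and 52600 to 83300 in males, with 3 of 7 higher in females, among them Ahsg by 0.44. Their part in the sex differences was not tested.

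Some male fat arrays carried transcripts of the neighbouring reproductive organs. Of the epididymis and testis markers measured, Prm1 was detected on 1 female and 9 male fat arrays, Tnp1 on 0 and 5, Lcn8 on 0 and 3, Adam7 on 0 and 2, and Lcn5 on 1 and 2. At least 1 of the 5 was detected on 14 fat arrays, 2 of females and 12 of males, and at least 2 of them on 5 arrays, all of males. Their summed signal was 224 to 273 in female fat and 227 to 9570 in male fat. No ovary, uterus or pancreas marker was detected in fat of either sex.

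The mu-class genes reached their highest values on such arrays. Normalized over both tissues, Gstm7 had a median of 5.94 in female fat (5.86 to 6.02), 6.07 in male fat with a marker (5.90 to 10.93) and 6.00 in male fat without one (5.84 to 6.82). Gstm5 had a median of 8.37 in female fat (7.43 to 9.51), 8.45 in male fat with a marker (7.70 to 11.64) and 8.26 in male fat without one (7.67 to 10.42). Gstm2 reached 12.20 in female fat, 13.35 in male fat with a marker and 12.25 in male fat without one, and Gstm6 reached 9.80, 11.45 and 10.68 in the same order. High Gstm5 values thus also occurred in male fat in which none of the 5 markers was detected.

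**Figure D4:**
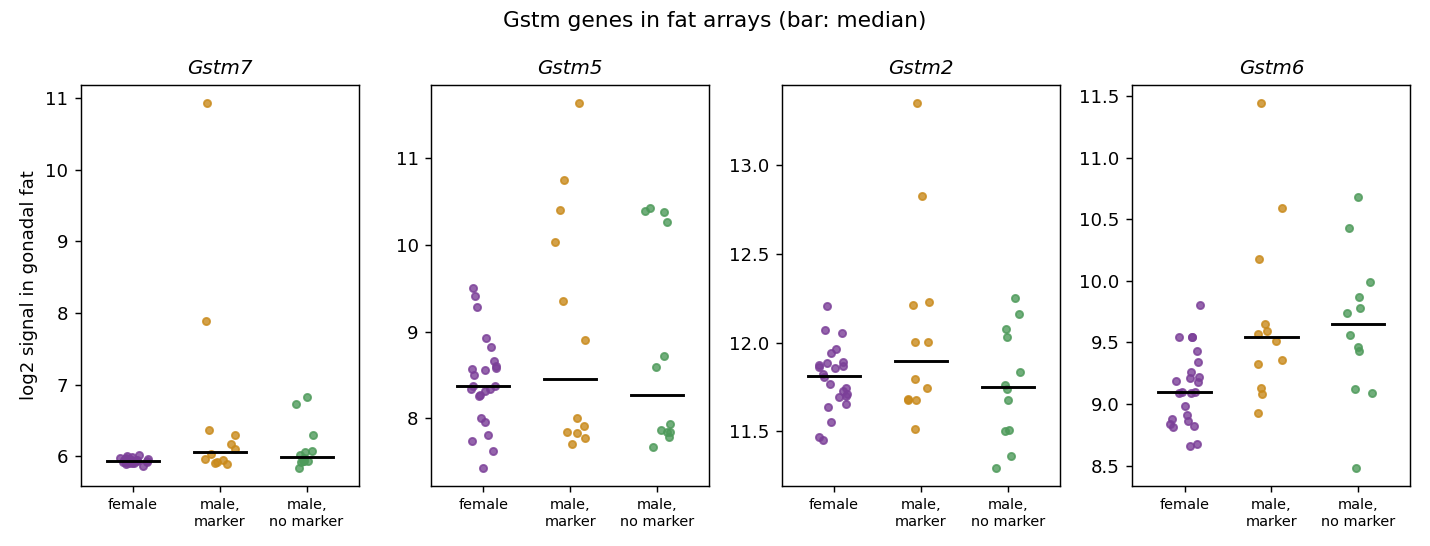
Log2 signal of 4 mu-class genes in gonadal fat on 24 female arrays, 12 male arrays with at least 1 epididymis or testis marker detected and 12 male arrays with none, with the median as a bar. The highest value of each gene lies on a male array with a marker, at 10.93 for Gstm7 and 13.35 for Gstm2.

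In fat, glutathione transferases that passed were lower in females and the other members that passed were higher. Of 23 members tested within fat, 12 passed the adjusted p of 0.05 in limma, 4 higher and 8 lower in females, against 22.6% of 10217 probes (12.1% higher and 10.5% lower). All 8 that were lower were glutathione transferases, of 17 tested, and the 4 that were higher were Sult1a1 and 3 Ugt1 genes. The sexes overlapped in every member, and 0.0294% of all probes had every female array higher and 0.00979% every female array lower. Without the 14 arrays with a marker 8 members passed, and without the 5 arrays with several markers 10 did. These settings left out 12 and 5 of the 24 male arrays, so fewer arrays were compared. Whether calls were lost through the markers or through the smaller number of arrays was not tested.

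Sult1a1 lay between 10.74 and 11.77 in female fat (median 11.30), against 10.05 to 10.90 in male fat (median 10.53), a difference of 0.77 ± 0.081 (SE; adjusted p = 1.02e-09). It was 0.72 without the 14 arrays (adjusted p = 6.02e-05), and its other probe gave 0.76. Gsta3 lay between 9.61 and 10.94 in female fat (median 10.16), against 10.25 to 11.68 in male fat (median 10.93), a difference of -0.76 ± 0.11 (SE; adjusted p = 1.41e-06), and -0.73 without those arrays (adjusted p = 0.00104). Gsta4 lay between 8.81 and 9.98 in female fat (median 9.37), against 9.42 to 10.76 in male fat (median 9.75), a difference of -0.43 ± 0.099 (SE; adjusted p = 0.00111), and -0.51 without them (adjusted p = 0.00917).

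Of the mu class, Gstm1 lay between 9.61 and 10.91 in female fat (median 10.33), against 9.99 to 11.72 in male fat (median 10.82), a difference of -0.48 ± 0.12 (SE; adjusted p = 0.00348), and -0.51 without the 14 arrays (adjusted p = 0.0131). Gstm6 lay between 8.80 and 9.78 in female fat (median 9.17), against 8.65 to 11.25 in male fat (median 9.57), a difference of -0.46 ± 0.14 (SE; adjusted p = 0.011), and -0.52 without them (adjusted p = 0.0142). Without scanning day 3 the difference was -0.48 for Gstm1 (adjusted p = 0.0611) and -0.51 for Gstm6 (adjusted p = 0.0832), and without day 8 it was -0.39 for Gstm6 (adjusted p = 0.0959). Gstm5 and Gstm2, which were highest in marker arrays, did not pass, with intervals of -0.82 to 0.21 and -0.33 to 0.08. Gstm4, Gstt2, Gstk1, Gsto1, Gstp1, Gstz1, Mgst2, Ugt1a2 and Ugt1a10 did not pass either, with Gstp1 the nearest at -0.17 (adjusted p = 0.0604).

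Of 3 theta-class genes 2 were lower in female fat, as were 2 of 3 microsomal genes, and Gstt2 (0.0011, adjusted p = 0.996) and Mgst2 (0.15, adjusted p = 0.396) did not pass. Gstt3 lay between 8.66 and 10.01 in female fat (median 9.62), against 9.62 to 10.48 in male fat (median 9.98), a difference of -0.40 ± 0.075 (SE; adjusted p = 7.93e-05), and -0.40 without the 14 arrays (adjusted p = 0.0133). Gstt1 lay between 6.58 and 7.90 in female fat (median 7.15), against 6.71 to 7.79 in male fat (median 7.42), a difference of -0.27 ± 0.083 (SE; adjusted p = 0.0145), and -0.37 without them (adjusted p = 0.0192). The Gstt1 call was lost without scanning day 4 (adjusted p = 0.0577) or day 8 (adjusted p = 0.173).

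Mgst3 lay between 9.56 and 10.80 in female fat (median 10.48), against 10.28 to 11.21 in male fat (median 10.94), a difference of -0.39 ± 0.083 (SE; adjusted p = 0.000506), and -0.50 without the 14 arrays (adjusted p = 0.00441). Mgst1 lay between 10.94 and 12.55 in female fat (median 11.90), against 11.52 to 12.82 in male fat (median 12.33), a difference of -0.39 ± 0.10 (SE; adjusted p = 0.00373). The Mgst1 call was lost without the 14 arrays (-0.28, adjusted p = 0.124) and without scanning day 3 (-0.27, adjusted p = 0.229).

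Of 5 tested Ugt1 genes, 3 were higher in female fat. Ugt1a6a lay between 9.97 and 10.87 in female fat (median 10.43), against 9.61 to 10.63 in male fat (median 10.19), a difference of 0.30 ± 0.078 (SE; adjusted p = 0.00417). Ugt1a6b lay between 10.30 and 11.33 in female fat (median 10.88), against 9.99 to 11.18 in male fat (median 10.56), a difference of 0.24 ± 0.082 (SE; adjusted p = 0.0273). Ugt1a7c lay between 10.36 and 11.34 in female fat (median 10.86), against 10.03 to 11.05 in male fat (median 10.59), a difference of 0.21 ± 0.079 (SE; adjusted p = 0.045).

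Without the 14 arrays with a marker none of these Ugt1 genes passed, at 0.18 (adjusted p = 0.216), 0.15 (adjusted p = 0.354) and 0.14 (adjusted p = 0.418). Without the 5 arrays with several markers Ugt1a6a passed (adjusted p = 0.0277), and Ugt1a6b (adjusted p = 0.144) and Ugt1a7c (adjusted p = 0.191) did not. None passed without scanning day 3, with adjusted p of 0.318, 0.323 and 0.327. The other Ugt1a6a and Ugt1a6b probes did not pass in fat.

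Cell type markers in fat also differed by sex. Of 5 tested markers of endothelium and stroma 4 were higher in females, among them Col1a1 by 1.10 (adjusted p = 6.9e-06) and Dcn by 0.30 (adjusted p = 0.000968), and the list's summed signal was 7460 to 14900 in females and 6840 to 10900 in males. Of 5 tested mesothelium markers, Wt1 was higher in females (0.91, adjusted p = 0.000506), Krt8 (-0.97, adjusted p = 0.000806) and Krt18 (-0.59, adjusted p = 0.0107) were lower, and Upk3b (0.70, adjusted p = 0.0534) was among the 2 that did not pass. Of 2 tested genes of the bile duct list, which cannot mark bile ducts in fat, Sox9 was lower (-1.54, adjusted p = 1.7e-05). Krt7 did not pass (0.11, adjusted p = 0.806). Of 7 adipocyte markers only Plin1 passed, at -0.48 (adjusted p = 0.00357). Which cells carried these transcripts, and the part of such cells in the members' sex differences, was not tested.

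The difference between the sexes itself differed between the tissues for 20 of 42 members (12 with a higher and 8 with a lower female minus male value in liver than in fat), against 27.7% of all probes. Of the 42, only 22 passed the detection minimum in both tissues. For members near background in fat, the value largely restates their sex difference in liver. The named genes are the 8 with the smallest adjusted p. Of the 22 members tested in both tissues, 11 passed for sex in each. Of these, 7 had the same direction in both (Gstm1, Gstm6, Mgst1, Sult1a1, Ugt1a6a, Ugt1a6b and Ugt1a7c) and 4 had opposite directions (Gsta3, Gstt1, Gstt3 and Mgst3). Over all probes 34.0% passed for sex in liver and 22.6% in fat. The share that passed in both was not counted, so whether these counts are unusual for the array is not known.

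The opposed genes are all glutathione transferases, which made up 17 of the 23 members tested in fat. Gstm1, Gstm6 and Mgst1, also glutathione transferases, had the same direction in both tissues. Gstt3 had means of 11.80 in female and 10.42 in male liver, and of 9.58 in female and 10.10 in male fat, when all arrays were normalized together. Its sex difference in liver exceeded that in fat by 1.91 ± 0.12 (SE; adjusted p = 1.7e-24). Mgst3 had means of 8.44 in female and 7.42 in male liver, and of 10.52 in female and 11.02 in male fat, an excess of 1.51 ± 0.13 (SE; adjusted p = 3.47e-17). Gstt1 had means of 8.92 in female and 7.99 in male liver, and of 6.94 in female and 7.16 in male fat, an excess of 1.17 ± 0.11 (SE; adjusted p = 1.9e-15). Gsta3 had means of 13.38 in female and 13.24 in male liver, and of 10.27 in female and 11.12 in male fat, an excess of 1.00 ± 0.13 (SE; adjusted p = 1.82e-09).

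Among genes with a sex difference in liver and little signal or little difference in fat, Sult2a2 had an excess of 6.57 ± 0.061 (SE; adjusted p = 3.33e-88) and Sult1d1 of 1.02 ± 0.090 (SE; adjusted p = 1.78e-16). Neither was detected on more than 1 fat array. Ugt2b1, not detected in fat, had -0.88 ± 0.093 (SE; adjusted p = 8.43e-13). Gstp1 had means of 11.27 in female and 13.79 in male liver, and of 10.85 in female and 11.04 in male fat, at -2.30 ± 0.12 (SE; adjusted p = 3.08e-29). It was detected on all 96 arrays, so both tissues gave a measured level. Sult1a1 was higher in females in both tissues, and its difference between them did not pass (0.27 ± 0.12, SE; adjusted p = 0.0761).

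**Figure D5:**
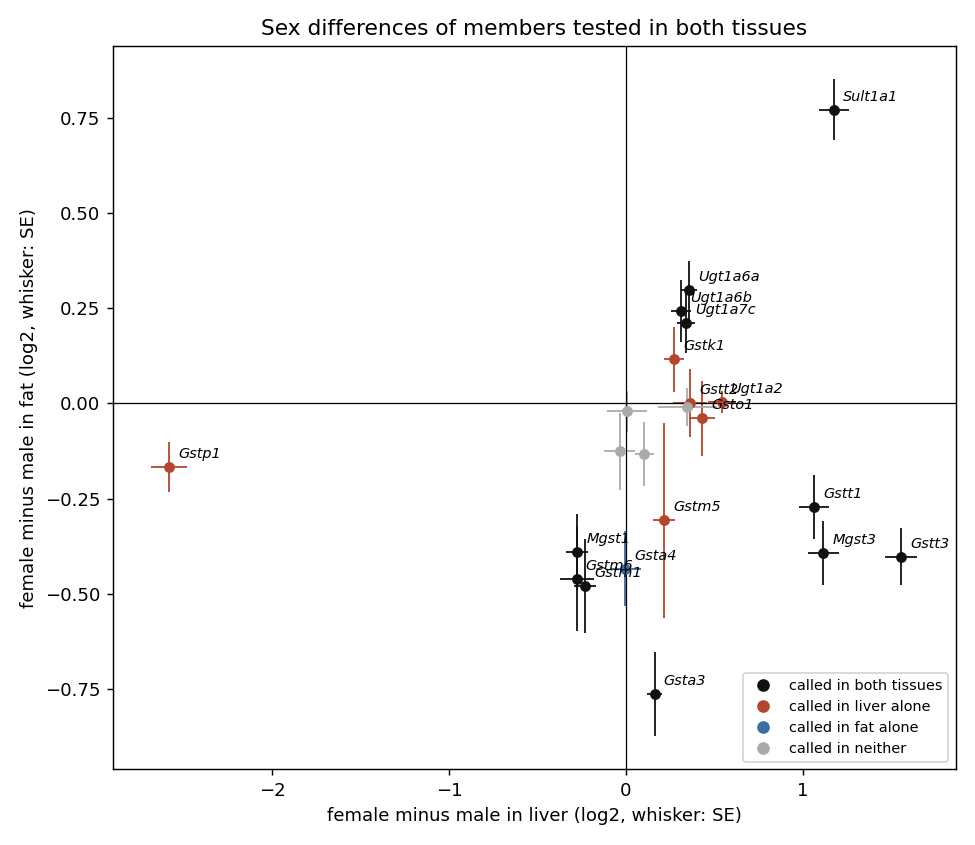
Female minus male in liver (x axis) against female minus male in gonadal fat (y axis), in log2 with SE whiskers, for the 22 members tested in both tissues, coloured by where they passed an adjusted p of 0.05. Gstt3, Mgst3 and Gstt1 lie at the lower right, higher in female liver and lower in female fat, and Sult1a1 lies at the upper right, at 1.18 in liver and 0.77 in fat.

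Haplotype class, the grouping of the study's own design, gave no call among these genes in the test over all classes. With limma's moderated F-test over the 4 classes, 0 of 40 members passed in liver (3 at an unadjusted p of 0.05), against 0.317% of all probes, and 0 of 23 passed in fat (2 at an unadjusted p of 0.05), against 0.401%. The smallest p was that of Gstt3 in liver (0.000585, adjusted p = 0.146) and of Gsto1 in fat (0.0221, adjusted p = 0.304). The interaction of sex and class passed for 0 members in liver (8 at an unadjusted p of 0.05, smallest Gstm4, adjusted p = 0.538) and for 0 in fat (0 at an unadjusted p of 0.05, smallest Gstz1, adjusted p = 0.75), against 0 of all probes in each. The interaction of tissue and class passed for 0 of 42 (4 at an unadjusted p of 0.05), against 0.179% of all probes, with the smallest adjusted p again that of Gstt3, at 0.0863. No member lies on chromosome 2, the chromosome the study was about.

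Pairs of classes gave 1 call, Gstt3 in liver, at 0.54 ± 0.12 (SE) for class 4 minus class 2 (adjusted p = 0.0487), a pair in which 0.106% of all probes passed. In liver 0.0353% of probes passed for class 2 minus class 1, 0.0118% for class 3 minus class 1, 0.317% for class 4 minus class 1, 0.0470% for class 3 minus class 2 and 0.0941% for class 4 minus class 3, with no member among them. In fat 0.0685%, 0.0294%, 0.176%, 0.421%, 1.39% and 0.0685% passed for class 2 minus 1, 3 minus 1, 4 minus 1, 3 minus 2, 4 minus 2 and 4 minus 3, again with no member, and the smallest adjusted p was that of Ugt1a6a for class 4 minus class 2 (0.0945). Within males, Gstt3 in liver lay between 10.57 and 11.33 in class 4 (median 10.91), against 9.73 to 10.41 in class 2 (median 10.04), with 6 arrays each and no overlap. These class 4 arrays were all scanned on days 2 and 5 and these class 2 arrays on days 1 and 6, so class and scanning day cannot be told apart within males. Within females, class 4 lay between 11.62 and 12.44 (median 12.06), against 11.63 to 12.04 in class 2 (median 11.81), and the classes overlapped, with the days the other way round. The call was lost under 11 of the 12 alternatives run, with differences of 0.41 to 0.62 and adjusted p of 0.0504 to 1.

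Genes that supply or follow conjugation were examined as lists, which share the limits of the chosen members. In liver against fat, 8 of 8 tested conjugate transporters were higher in liver, among them Slc10a1, the bile acid importer (6.15 ± 0.036, SE), Abcc3 (3.06) and Abcc2 (1.90). Of 7 genes for the sulfate and glucuronide donors, 5 were higher and 2 lower in liver, with Slc35d1, which carries UDP-glucuronic acid into the endoplasmic reticulum, at 3.52. Of 9 genes of glutathione synthesis and recycling, 7 were higher and 1 lower in liver, with Gclm, the modifier subunit of the first synthesis enzyme, at 2.85. The medians of these lists were 2.01, 1.04 and 0.85. Of 7 hydrolases that undo conjugation 3 were higher and 4 lower in liver, with a median of -0.25. Of 10 other conjugating enzymes 7 were higher and 3 lower, of 7 NRF2 targets that are not members 4 and 3, and of 12 regulators 9 and 3. Their medians were 1.79, 0.28 and 0.38. Over all probes the median was -0.04, with 38.8% higher and 47.9% lower in liver.

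In female against male liver, where 16.7% of all probes were higher and 17.4% lower, these lists held calls in both directions. The organic anion importers Slco1a4 (1.65 ± 0.10, SE; adjusted p = 1.31e-17) and Slco1a1 (-1.66 ± 0.15, SE; adjusted p = 7.66e-13) had opposed signs, and 3 of 8 transporters were higher and 2 lower. The PAPS synthases also had opposed signs, with Papss2 at 0.28 ± 0.028 (SE; adjusted p = 3.94e-11) and Papss1 at -0.24 ± 0.030 (SE; adjusted p = 1.7e-08). Of glutathione synthesis and recycling, 1 of 8 was higher and 2 were lower. Of hydrolases that undo conjugation, 2 of 6 were higher and 3 lower, among them Ces1g at 0.43 and Arsa at -0.96. Of other conjugating enzymes 3 of 8 were higher and 3 lower, with Nat8, an N-acetyltransferase that completes mercapturic acids, at -2.97 ± 0.084 (SE; adjusted p = 2.54e-31) and Tpmt, a thiol methyltransferase, at -0.82.

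The regulators of these genes were also tested. In liver, 6 of 12 were higher and 4 lower in females, against 16.7% and 17.4% of all probes, among them Nr1i3, the xenobiotic receptor CAR, at 1.20 ± 0.11 (SE; adjusted p = 9.62e-12) and Esr1, the estrogen receptor alpha, at 0.25 ± 0.039 (SE; adjusted p = 1.3e-06). Of NRF2 targets that are not members, Cbr1, a carbonyl reductase, was 1.39 higher, Taldo1 -0.19, and the other 4 of 6 did not pass. In fat, Gsr, glutathione reductase, was -0.56 ± 0.082 (SE; adjusted p = 1.99e-06) and Gclm -0.31 (adjusted p = 0.00864) in females, and Ggt5 was 0.17 (adjusted p = 0.00109). Of 8 genes of the glutathione list 2 were higher and 2 lower, against 12.1% and 10.5% of all probes.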

How the data were processed

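RNA of liver and gonadal fat was measured on 96 Illumina bead arrays, 48 a tissue. The deposited signal table holds probe intensity values that the authors had not normalized. Its detection column, headed as a p-value in the deposited file, rises with the signal, so it was read as 1 minus the p-value and turned back. The files do not state this, and every detection count and bound rests on it. The deposited matrix holds log2 values for which lumi is named, per the submitters' processing notes, with its settings not given in the sources used here. It served as an alternative.

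The neqc function of limma 3.58.1 (R 4.3.3) was run within each tissue for sex and class, and over all arrays where tissues were compared. It estimated background from detection p-values and normalized by quantiles before log2, and its offset of 16 compresses signals near background, so differences of low genes are understated. Probes entered a test when 12 or more arrays had a detection p below 0.01. Models held sex, class and scanning day; liver minus fat held sex and class, since each day holds 1 tissue. Two-sided p-values were adjusted by Benjamini-Hochberg over all probes tested, and the steps were tested on simulated data. Where a group detected a gene on no array, the fold is a bound against the lowest detected signal.

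The label's mouse number pairs the liver and fat arrays of 1 animal. Residuals of own-mouse pairs correlated with a median of 0.0835, above 0 in 38 of 48 mice. The mouse entered as a random block in an alternative.

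Of the 46116 probes, 29534 had 1 symbol in the platform table, 11 several and 16571 none. Named genes are the called members with the largest differences, up to 12 higher and 8 lower for tissue, 10 in each direction for sex, the 8 smallest p for the sex difference between tissues, the brightest member of each symbol start, members whose probes could bind a paralog, and up to 3 genes of each other list. Promoters are RefSeq's (GRCm38.p6). The members and the gene lists were chosen with earlier results of these data known, and the HNF1 motif was shortened by 1 letter after its first search.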

Additional observations from a re-analysis of the deposited data

Results flagged for a closer look

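The difference between the sexes differed between the tissues, by limma's interaction test, for the 8 members named in that comparison. Female minus male was greater in liver than in fat by 6.57 for Sult2a2, 1.91 for Gstt3, 1.51 for Mgst3, 1.17 for Gstt1, 1.02 for Sult1d1 and 1.00 for Gsta3 on the log2 scale. It was smaller in liver, at -2.30 for Gstp1 and -0.88 for Ugt2b1. Sult2a2, Sult1d1 and Ugt2b1 did not pass the detection minimum in fat, so their values largely restate the sex difference in liver. Gstt3, Mgst3, Gstt1 and Gsta3 had opposite signs in the tissues, each past the threshold in both. The Gstt1 call in fat was lost without scanning day 4 (adjusted p = 0.0577) or day 8 (adjusted p = 0.173). The Gsta3 call in liver was not followed through the alternatives. In the interaction test, the values of all 8 kept their direction and their call in every alternative run. These included the alternatives without the fat arrays in which epididymis or testis markers were detected. Of the 8 groups of 6 liver arrays for which Gstt3 is given by sex and class, 0 held an array far from the others.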

How the results depend on the processing

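Over all alternatives run, 894 of 1004 values of named genes kept direction and call, 106 kept direction and lost the call, and 4 changed sign. The sign changes were Gstt2 in liver within class 1 (-0.0927) and class 4 (-0.1065), Gsta1 in liver within class 4 (0.0683) and Ugt1a6b in fat within class 3 (-0.0363). No call between the tissues, or of the sex difference between tissues, was lost for a named gene. With each class on its own, 13, 17, 19 and 9 members passed for sex in liver in classes 1 to 4, against 29 over all, and 2, 5, 2 and 3 in fat, against 12 over all. Over all probes 6.33%, 7.49%, 15.1% and 18.0% passed in liver and 12.6%, 10.3%, 0.930% and 2.58% in fat. These fits hold 12 arrays each and no scanning day, and within each class the sexes were scanned on different days, so sex and day cannot be told apart there. For sex in fat 6 members passed without scanning day 3. For class in liver 2 passed without day 6, for the interaction of tissue and class 1 passed without day 4 and 2 without day 6, and for that of sex and class in liver 4 passed with no scanning day in the model, against 0 in each. For the interaction of tissue and class, more of all probes also passed without day 4 and without day 6 than in the main model. Whether any of these member counts moved more than those of all probes was not tested, so they are not results about these genes alone. The cause was not tested. The call among pairs of classes in liver, Gstt3, was lost (0 calls) with the deposited matrix or an offset of 50. It was also lost (0 calls) with detection on 24 arrays, no filter or array weights, and without the 3 least correlated arrays. The same held with no scanning day and without days 1, 2 or 5. Without day 6 the Gstt3 call for class 4 minus class 2 was lost too (0.62, adjusted p = 0.0796). There, 2 other calls of a member in a pair were made. The alternatives for class pairs, and those without fat arrays that carry epididymis or testis markers, were chosen after seeing the data. With the mouse as a replicate block, 40 members passed between the tissues, 21 for the sex difference between tissues and 0 for tissue and class, so the pairing changed no call of a named gene. With the deposited matrix the median difference of all probes between liver and fat was 0.07 in place of -0.04, and 58.7% in place of 44.8% of called probes were higher in liver, with 37 members higher and 4 lower. Signal over background limits the 14 members not tested and those near background, whose differences are understated.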
